A study of Mus musculus with 9 samples.

Results

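The genes described here are the nuclear-encoded subunits of the respiratory chain and of the mitochondrial ATP synthase, measured by single-cell RNA sequencing (scRNA-seq) in EP ZFTA-RELA ependymomas and control brains of mice. They were chosen by name, as every gene whose symbol carries the subunit prefixes Nduf (letters a, b, c, s or v with a number), Sdh (a to d), Uqcr, Cox (numbers 4 to 8) or Atp5, leaving out symbols that hold -ps or -rs. The rule used no measured value and found 84 of the 32285 mouse genes in the tables. By complex these were 35 genes of complex I, 4 of complex II, 8 of complex III, 20 of complex IV and 17 of the ATP synthase. Ndufa4 and its paralog Ndufa4l2 were counted with complex IV, to which the Ndufa4 protein belongs.

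The respiratory chain passes electrons from NADH (complex I) and succinate (complex II) through complex III to oxygen at complex IV, and the proton gradient that complexes I, III and IV build drives the ATP synthase. Complex II is encoded in the nucleus alone and is also an enzyme of the tricarboxylic acid cycle, whereas the other complexes combine nuclear subunits with subunits encoded in the mitochondrial genome, here the 13 mt- genes. Several complex IV subunits exist as tissue-specific isoforms, and subunit c of the ATP synthase is made from 3 genes (Atp5g1, Atp5g2 and Atp5g3) that encode the same mature protein.

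The controls were 4 NestinCreERT2;TdT brains and the tumors 5 NestinCreERT2;Fus1 samples, all from mice of 6 to 8 weeks. Both groups carried the Nestin-driven CreERT2 allele. The tumor mice also carried a conditional ZFTA-RELA fusion allele, linked to luciferase, that was recombined in embryonic radial glia, so that the tumors arose in a neural lineage and contain host immune and vascular cells. Tissue was dissociated with the choroid removed, debris was depleted on Percoll, and 10x 5′ gene expression libraries were made. Kept barcodes numbered 7609 to 8531 per control and 4897 to 9197 per tumor, with 17529570 to 31060222 and 8353243 to 49783442 unique molecular identifiers (UMIs). The deposited libraries were unlike in size. Controls held 75222 to 86516 barcodes and 101060608 to 178086164 UMIs, and tumors 9001 to 26341 barcodes and 14967680 to 69411387 UMIs. Fusion transcripts were at 0 UMIs in the kept barcodes of controls 1 to 3 (not analysed here in control 4), and at 6, 275, 12, 849 and 426 in tumors 1 to 5, so that tumors 1 and 3 held few of them. Values are CPM, the UMIs of a gene or group scaled to the same total of mouse UMIs in every sum, summed per mouse over all kept barcodes or over the barcodes that met a marker gate. In such sums, fewer cells of a type and less RNA per cell cannot be told apart, and the tests measure only the spread between these mice.

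The kept barcodes did not hold the same mixture of cells in the 2 groups. Summed neuron markers were at 21641 to 25682 CPM in the controls and from 462 CPM (tumor 4) to 9981 CPM (tumor 1) in the tumors. Erythroid markers, mostly globin genes, were at 3915 to 5814 CPM in the controls and from 23.9 CPM (tumor 1) to 157637 CPM (tumor 3) in the tumors. Igf2-high markers were at 39.5 to 46.8 CPM against 444 to 7057 CPM. Free RNA also differed between the groups: from the markers of neurons and oligodendrocytes, at most 66.9 to 72.5% of the UMIs of microglia-gated sums could come from it in the controls and 15.6 to 36.7% in the tumors. The barcodes that stood for free RNA had medians of 691 to 1338 UMIs in the controls and 559 to 649 in the tumors. Medians of the kept barcodes were 1929 to 3548 UMIs in the controls and 768 to 4480 in the tumors. In tumor 3 all 3000 barcodes that stood for free RNA were also among those taken as cells and 2376 of them were kept, so that its free RNA values partly compare cells with themselves, while no other library had such an overlap. The part of the cell mixture in the values over all kept barcodes was not tested, and values with free RNA subtracted are given with the gated comparisons.

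Promoters of 67 of the 84 members were found in the RefSeq table of build GRCm38.p6 and are shown for 3 members whose levels are followed below, since NRF1 and GABP are known regulators of this gene set. The windows are the 250 bases before the start of the gene, 5′ to 3′ on the gene's own strand. Atp5g2 lies on the minus strand (window chr15:102671048-102671297), Sdhd on the minus strand (window chr9:50603850-50604099) and Cox7b on the plus strand (window chrX:106015450-106015699). Capitals mark the match to an NRF1 motif, whose first base is 41 bases before the start of Atp5g2, and to an ETS motif, the kind that GABP binds, whose first base is 46 bases before the start of Sdhd. None of the 5 motifs searched matched in the Cox7b window.
Atp5g2: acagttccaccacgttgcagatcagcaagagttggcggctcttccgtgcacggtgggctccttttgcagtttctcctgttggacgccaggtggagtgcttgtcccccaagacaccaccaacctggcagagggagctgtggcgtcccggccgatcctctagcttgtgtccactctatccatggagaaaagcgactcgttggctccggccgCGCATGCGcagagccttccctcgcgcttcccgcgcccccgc
Sdhd: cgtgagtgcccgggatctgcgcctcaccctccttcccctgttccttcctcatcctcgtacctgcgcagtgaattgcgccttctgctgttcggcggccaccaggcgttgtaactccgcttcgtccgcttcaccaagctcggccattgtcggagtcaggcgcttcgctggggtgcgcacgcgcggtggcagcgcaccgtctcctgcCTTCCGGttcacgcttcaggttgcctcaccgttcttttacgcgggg
Cox7b: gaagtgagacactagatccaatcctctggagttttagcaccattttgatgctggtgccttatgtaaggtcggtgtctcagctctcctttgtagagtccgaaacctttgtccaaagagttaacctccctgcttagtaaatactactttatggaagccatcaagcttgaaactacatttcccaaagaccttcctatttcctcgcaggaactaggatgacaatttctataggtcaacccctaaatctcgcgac

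Motifs were matched as exact letters on either strand. A gene was counted once if any of its windows matched. The NRF1 motif CGCATGCG was found for 7 of the 67 members (10.4%) against 1.75% of all 27025 genes searched, and those 7 members were Atp5g2, Atp5j, Atp5k, Atp5l, Cox6a1, Ndufa8 and Ndufa11. The ETS motif CCGGAAG was found for 12 members (17.9%, against 7.83% of all genes searched). The YY1 motif ATGGCGG was found for 4 (5.97%, against 2.58%), the estrogen-related receptor motif AAGGTCA for 5 (7.46%, against 4.70%) and the TATA box TATAAA for 7 (10.4%, against 14.3%). Each motif was counted on its own, also where matches to different motifs overlap, and a match is a description of the letters only.

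Over all kept barcodes the 84 members together took a similar share of the transcriptome in every control and a widely varying one in the tumors. Their summed level was 26657, 27625, 26440.0 and 27713 CPM in controls 1 to 4, with a mean of 27109 (SD 654, n = 4). In tumors 1 to 5 it was 21419.9, 24156, 19400.4, 34733 and 32128 CPM, with a mean of 26367 (SD 6728, n = 5). At the 20% mitochondrial limit used here, tumors 1 to 3 were below every control and tumors 4 and 5 above every control. In this setting the groups had close means and a different spread. The mt- genes took 9.60, 10.1, 9.85 and 9.84% of UMIs in the controls and 11.5, 9.22, 5.50, 2.52 and 3.76% in tumors 1 to 5, with tumor 1 highest and tumors 4 and 5 lowest. At the 20% limit the members and the mt- genes were thus on opposite sides of the controls in tumors 1, 4 and 5, and both were below every control in tumors 2 and 3. The number of member UMIs per mt- UMI was 0.268 to 0.282 in the controls but 0.186, 0.262, 0.353, 1.38 and 0.854 in the tumors. The mitochondrial limit of 20% per barcode lowers the mt- share of the controls and of tumors 1 to 3 and removed no barcode of tumors 4 and 5, and a limit of 10% moved the control mean of the member sum to 21717 CPM and that of the ratio to 0.319. With the 10% limit tumor 2 was at 24778.5 CPM, above every control (20455 to 22490 CPM). Its mt- share of 6.55% then lay within theirs (6.37 to 7.18%), and its ratio of 0.378 above theirs (0.310 to 0.331). The place of tumor 2 against the controls also changed in other settings, given below. With only barcodes that met a gate, the member sum was 20479.5 to 22530.7 CPM in the controls and 16657.8 to 33640.9 CPM in the tumors. The part of barcodes close to free RNA in the sums over all kept barcodes was not tested.

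The complexes did not move as 1 block. Complex I summed to 8154, 8551, 8069 and 8450.5 CPM in the controls and 6740.5, 7978, 5898, 12799 and 10901 CPM in the tumors, so that tumors 4 and 5 were above and tumors 1 to 3 below every control. Complex II summed to 375 to 405 CPM in the controls and to 431, 446, 371, 539 and 536 CPM in the tumors. For this complex only tumor 3 fell below the controls and the other 4 tumors were above all of them. Complex III was at 2369.9 to 2485 CPM against 2036, 2139, 1879, 3181 and 3179.5 CPM. Complex IV was at 8484 to 9016 CPM against 6496, 6904, 5861, 8477 and 8518 CPM, and here tumors 4 and 5 did not exceed the controls. The ATP synthase was at 7029.9 to 7461 CPM against 5717, 6688, 5392, 9737 and 8993 CPM, in the same order of tumors as complex I. Set against the mt- genes of the same complex, complex I gave 0.296 to 0.312 nuclear UMIs per mt- UMI in the controls and 0.271, 0.408, 0.430, 2.33 and 1.27 in the tumors. Complex IV gave 0.197 to 0.213 in the controls and 0.116, 0.156, 0.251, 0.733 and 0.528 in the tumors.

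**Figure D1:**
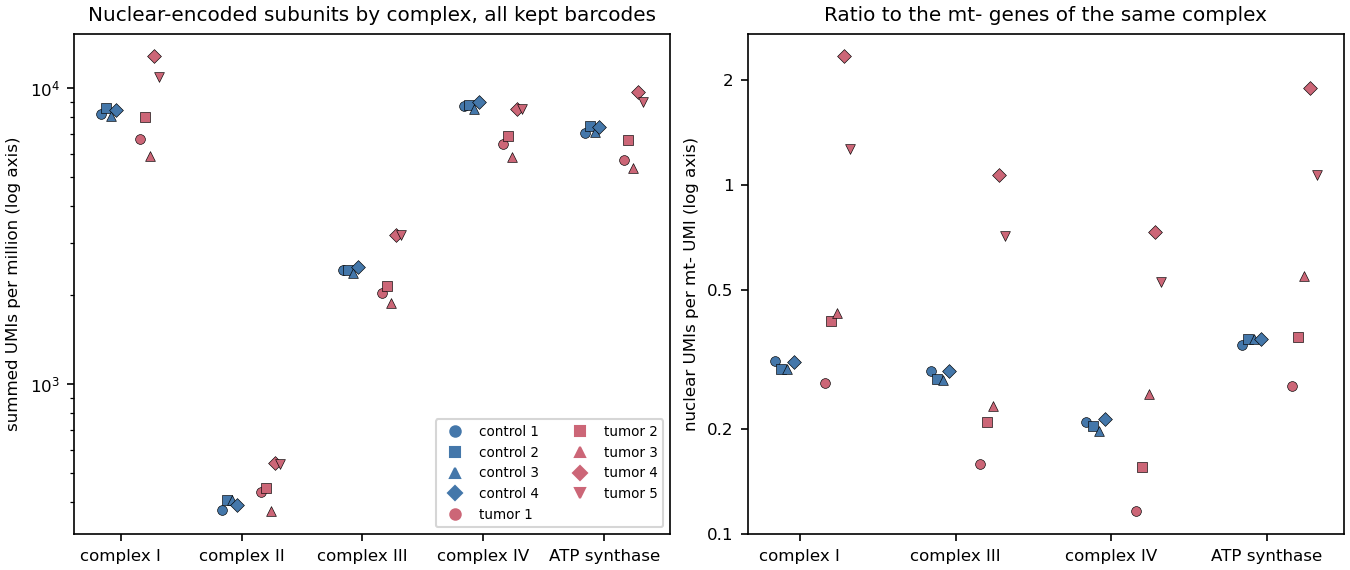
Summed level of the nuclear-encoded subunits of each complex in all kept barcodes (left, CPM, log axis) and the number of nuclear UMIs per UMI of the mt- genes of the same complex (right, log axis), 1 symbol per mouse, controls in blue and tumors in red. The controls stay close together in every column, while tumor 4 reaches 12799 CPM for complex I and a ratio of 2.33.

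Member by member, the spread between tumors was larger than that between controls for nearly all of the set. Among the 75 members with a control mean of at least 50 CPM, the median coefficient of variation was 3.91% over the 4 controls and 32.1% over the 5 tumors, and 73 of the 75 varied more in the tumors. Tumors 4 and 5 each had 60 of the 84 members above every control and 16 below. Tumor 1 had 57 members below every control, tumor 2 had 47 and tumor 3 had 63. The same counts over all genes are not given here, so these do not set the members apart from other genes. Tumor 3 was the library with the most erythroid RNA and tumor 4 the one with the least neuron RNA, as given above.

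Whether single members differed between tumors and controls was tested with edgeR's quasi-likelihood test on the summed counts, with Benjamini-Hochberg adjustment over all genes tested. Of the 83 members tested over all kept barcodes, 15 were higher and 2 lower in the tumors at an adjusted p under 0.05, against 29.4% (higher) and 27.7% (lower) of all 18161 genes tested, so both counts lay under that background. Their median log2 fold change was 0.27, against 0.01 over all genes. With library sizes in place of TMM the median of all genes moved to -0.22, that of the members to 0.01, and the calls to 10 higher and 8 lower. Of all 18161 genes tested, 4374 were then higher and 5767 lower, and the counts per complex on library sizes below stand beside these. The count of higher members fell to 6, 8, 8 and 9 without controls 1, 2, 3 and 4 and rose to 24 without tumor 1. Pairs of tumors were also left out, a choice made after the values were seen. Without tumors 4 and 5, which had the highest member sums, the calls were 12 higher and 11 lower. Without tumors 1 and 3, which had the lowest, 53 members were higher. These counts depend on that choice. The shares of all genes called in the fits that left out mice are not given, so the shifts are not read as particular to the members.

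All 4 members of complex II were called, 3 of them higher and 1 lower, in a comparison that called 29.4% of all genes higher and 27.7% lower, and on library sizes alone 2 were higher and 1 lower. Sdhd, the small membrane anchor that holds the complex in the inner membrane, was at 24.6, 29.6, 26.2 and 27.4 CPM in the controls and 56.6, 57.7, 59.9, 103 and 92.5 CPM in the tumors, with no overlap between the groups. It rose by 1.72 (SE 0.27, adjusted p = 0.000810) on the log2 scale and was called without each mouse in turn. Sdhc, the other anchor, was at 59.8, 68.3, 65.5 and 62.7 CPM against 91.5, 114, 81.7, 71.2 and 79.1 CPM. It rose by 0.69 (SE 0.18, adjusted p = 0.0102), again with no overlap. Sdhb, the iron-sulfur subunit, was at 120.0, 130.2, 129.8 and 122 CPM against 137, 183, 128, 274 and 246 CPM and rose by 0.90 (SE 0.29, adjusted p = 0.0258). Tumor 3 lay within the control range for Sdhb, and the call was lost without any 1 of the 4 controls. Sdha, the flavoprotein that oxidizes succinate, went the other way. It was at 170.1, 177, 184 and 179 CPM in the controls and 146, 91.3, 101, 91.1 and 119 CPM in the tumors, and fell in every tumor below every control (-0.48 (SE 0.14, adjusted p = 0.0137)). Free RNA showed the same order for Sdha, with 206 to 232 CPM in the controls and 107 to 174 CPM in the tumors.

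**Figure D2:**
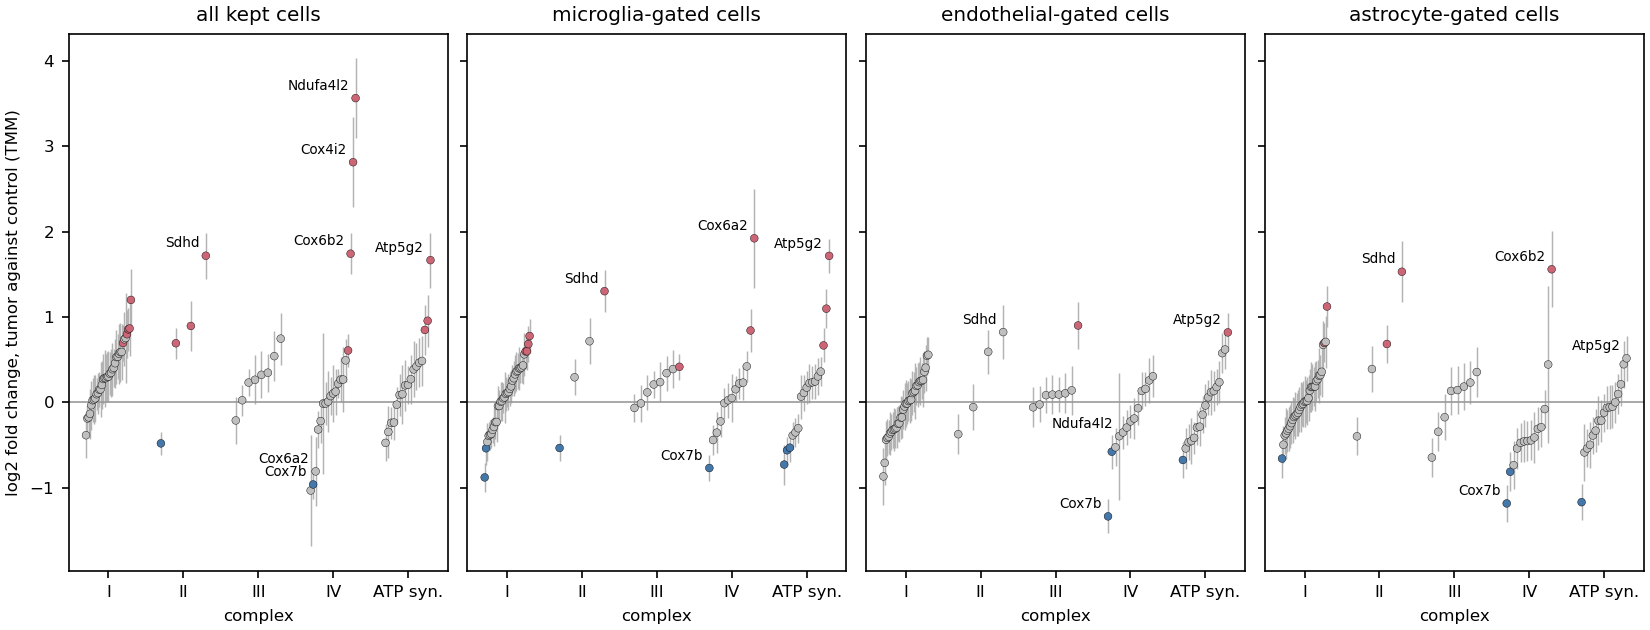
Log2 fold change of every tested member, tumor against control, in all kept barcodes and in microglia-gated, endothelial-gated and astrocyte-gated cells, ordered within each complex, with bars of 1 standard error. Members called higher are red, those called lower are blue and the others grey; Cox7b is called lower and is below 0 in each panel, from -0.77 in microglia-gated to -1.33 in endothelial-gated cells.

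In complex I, 5 of 35 members were higher and 0 were lower (0 also at an unadjusted p under 0.05 and with DESeq2), with a median log2 fold change of 0.30. On library sizes alone 3 were higher and 2 lower, with a median of 0.04. Ndufb11, an accessory subunit of the membrane arm, was at 222 to 229 CPM in the controls and 274, 390.2, 244, 716 and 506 CPM in the tumors, all of them above the controls, and rose by 1.20 (SE 0.36, adjusted p = 0.0183). This call was lost without control 1. Higher calls were also made for Ndufa2 (0.87 (adjusted p = 0.0420)), Ndufc2 (0.80 (adjusted p = 0.0337)) and Ndufa7 (0.70 (adjusted p = 0.0199)), accessory subunits whose calls were lost without any 1 of the controls and, for Ndufa2, without tumor 2, 4 or 5. The core subunits Ndufs1 and Ndufv1 had log2 fold changes of -0.17 (SE 0.18) and 0.21 (SE 0.28), the latter -0.07 on library sizes, and did not pass the test. Ndufs1, the largest subunit, was at 83.8 to 85.3 CPM in the controls and at 50.3 to 87.2 CPM in the tumors.

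Complex III had no call among its 8 members (1 was higher at an unadjusted p under 0.05, and 1 with DESeq2), at a median log2 fold change of 0.29. Uqcrfs1, the Rieske iron-sulfur protein, was at 103, 119.5, 122 and 120.0 CPM in the controls and 110.5, 149, 108, 228 and 214 CPM in the tumors, and its log2 fold change of 0.75 had an adjusted p of 0.0572. Uqcrc1, a core subunit, was at 101 to 106 CPM against 86.0 to 118 CPM, with a log2 fold change of 0.23 (SE 0.16) that became -0.01 on library sizes.

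Complex IV had 4 higher members and 1 lower one among the 19 tested, with the 3 largest rises of the set and the larger of its 2 falls, at a median log2 fold change of 0.11. On library sizes alone 3 were higher and 2 lower, and the median turned to -0.16. Ndufa4l2, a paralog of Ndufa4 known as a target of hypoxia signaling, was at 1.94, 2.24, 2.48 and 2.03 CPM in the controls and 11.5, 38.4, 27.4, 17.1 and 11.4 CPM in the tumors, and rose by 3.56 (SE 0.47, adjusted p = 0.000386). Cox4i2, the isoform of subunit 4 that is found in lung, pericytes and oxygen-sensing cells, was at 1.54, 1.98, 2.06 and 2.00 CPM against 5.87, 18.97, 15.1, 11.4 and 3.49 CPM and rose by 2.81 (SE 0.53, adjusted p = 0.00193). Cox6b2, described as the testis isoform of subunit 6B, was at 7.76, 10.4, 10.9 and 9.01 CPM against 44.3, 23.9, 18.6, 30.7 and 20.5 CPM and rose by 1.74 (SE 0.24, adjusted p = 0.000483). In none of the 3 did the groups overlap, and each call held without any 1 mouse. Mural markers moved with the first 2 of these genes, from 62.7 to 83.0 CPM in the controls to between 182 CPM (tumor 4) and 818 CPM (tumor 3). Cox7a2l was also higher (0.61 (SE 0.19, adjusted p = 0.0203)), a call lost without control 1, 2 or 3. The common isoform Cox4i1 was at 1460.0 to 1533 CPM in the controls and 1327, 1252, 859, 905 and 777 CPM in the tumors, which all lay below the controls, but its log2 fold change of -0.32 (SE 0.22) did not pass the test.

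Cox7b, a small subunit needed for the assembly of complex IV, was at 629.6, 595, 538 and 576 CPM in the controls and 253, 255, 231, 264 and 264 CPM in the tumors. All tumors were below all controls, with a coefficient of variation of 5.39% between tumors, and Cox7b fell by 0.96 on the log2 scale (SE 0.17, adjusted p = 0.00130). The free RNA showed the same gap, with 879 to 1071 CPM in the controls and 216 to 335 CPM in the tumors. Its testis isoform Cox7b2 was at 0.858 to 1.43 CPM in the controls and at 0.0201 to 2.63 CPM in the tumors. Cox8c, another testis isoform, had UMIs in tumor 2 only, at 0.0416 CPM, and was not tested. The subunits and isoforms in common use did not pass the test: Cox5a, Cox6a1, Cox6b1, Cox7a2, Cox8a and Ndufa4 had log2 fold changes between 0.01 (Ndufa4) and 0.27 (Cox6b1), and all but Cox6b1 were at or below 0 on library sizes. The muscle isoforms Cox6a2 and Cox8b had log2 fold changes of -0.81 (SE 0.40) and -1.03 (SE 0.65), and Cox7a1 of 0.27 (SE 0.38) (-0.01 on library sizes), none of them called.

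Among the 17 subunits of the ATP synthase, 3 were higher and 0 lower (0 also at an unadjusted p under 0.05, and 1 with DESeq2), at a median log2 fold change of 0.21. On library sizes alone 2 were higher and 3 lower, with a median of -0.05. Of the 3 genes for subunit c, Atp5g2 was at 220.3, 225, 224 and 229 CPM in the controls and 382, 532, 419, 832 and 783 CPM in the tumors, all above the controls, and rose by 1.67 (SE 0.32, adjusted p = 0.00214). Atp5g1 was at 489 to 531 CPM against 360.1, 403, 212, 679 and 616 CPM and Atp5g3 at 441 to 469 CPM against 246, 228, 174, 445 and 386 CPM. Neither passed the test, with log2 fold changes of 0.10 (SE 0.34), which was -0.17 on library sizes, and -0.34 (SE 0.31), and the differences between the changes of these 3 genes were not tested. The other 2 calls were Atp5e and Atp5d, subunits of the central stalk, with log2 fold changes of 0.96 (SE 0.30, adjusted p = 0.0221) and 0.85 (SE 0.29, adjusted p = 0.0309), both lost without any 1 of the controls. The catalytic subunits Atp5a1 (alpha) and Atp5b (beta) had log2 fold changes of -0.03 (SE 0.21) and -0.24 (SE 0.19) and did not pass. Many members have processed pseudogenes and the subunit c genes are alike in sequence, so their reads could have been split or lost in counting.

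**Figure D3:**
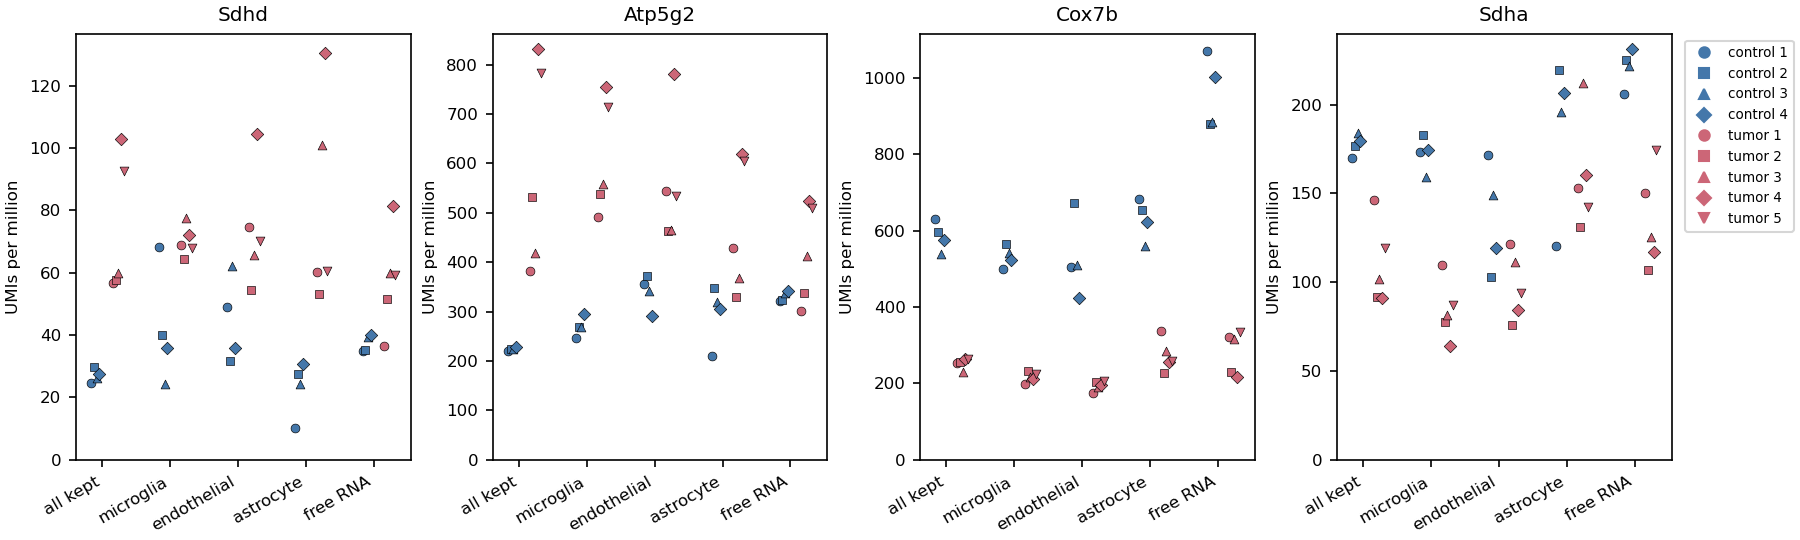
Level (CPM) of Sdhd, Atp5g2, Cox7b and Sdha in each mouse, for all kept barcodes, microglia-gated, endothelial-gated and astrocyte-gated cells and free RNA, with controls in blue and tumors in red. Cox7b separates the groups in every column, from 879 to 1071 against 216 to 335 CPM in free RNA to 500.2 to 565 against 199 to 232 CPM in microglia-gated cells.

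The same groups were then compared within gated cell types. These comparisons use the same control mice as the one over all kept barcodes, so the values are given side by side. Microglia-gated cells numbered 163 to 185 per control and 521 to 1503 per tumor, and all 12 microglia markers were detected in both groups, with 15399 to 17239 CPM in the controls and 28443 to 43323 CPM in the tumors. Neuron markers in the same sums were at 5468 to 6351 CPM in the controls and 90.2 to 2200 CPM in the tumors. The part of RNA from neurons or other cell types in the differences was not tested. Igf2-high cells of tumors 2 to 5 held 674 to 918 CPM of Atp5g2, 59.8 to 135 CPM of Sdhd and 628 to 1000 CPM of Atp5e. The members summed to 26409 to 27254 CPM in control microglia and 18053, 19058, 17556, 22187 and 22779 CPM in tumor microglia, so every tumor was below every control on this scale. Of 77 members tested, 11 were higher and 7 lower, against 21.9% and 19.9% of 9731 genes. The median log2 fold change was 0.16 (0.06 over all genes). On library sizes the median of all genes moved by -0.53, and 3 members were higher and 28 lower. Of the 9731 genes, 988 were then higher and 3785 lower. The count of higher members was 5, 5 and 4 without controls 1, 2 and 4, and that of lower members 4, 4 and 3 without controls 2, 3 and 4. Without tumors 4 and 5, again those with the highest member sums, there were 11 lower members. Without tumors 1 and 3, again those with the lowest, there were 30 higher ones. These counts also depend on that choice and have no shares over all genes beside them.

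The 3 rises that stood on both scales were Atp5g2, Sdhd and Atp5e. Atp5g2 was at 247, 268, 268 and 295 CPM in control and 492, 538, 558, 756 and 715 CPM in tumor microglia, without overlap (1.72 (SE 0.20, adjusted p = 0.000214)). Sdhd was at 68.2, 40.0, 24.2 and 35.8 CPM against 69.0, 64.3, 77.4, 72.2 and 67.9 CPM (1.30 (SE 0.24, adjusted p = 0.00230)), and control 1 lay within the range of the tumors. Atp5e was at 385 to 445 CPM against 409, 495, 620.0, 807 and 725 CPM (1.10 (SE 0.23, adjusted p = 0.00394)), with tumor 1 inside the control range. Ndufs8, an iron-sulfur subunit of complex I, was called higher at 0.78 (SE 0.20, adjusted p = 0.0111) and held without each mouse, but on library sizes it was 0.24 and not called. The other 7 higher calls were each lost without some of the mice. These were Cox7a2l (lost without control 2 or 4), Atp5d (control 1 or 4), Ndufb11 (any control), Cox6a2 and finally Ndufv3, Ndufa2 and Uqcrh (any control or tumor 2, 4 or 5). Uqcrh (0.42) turned to -0.11 on library sizes. Cox6a2, the heart and muscle isoform of subunit 6A, was at 19.9, 18.5, 24.2 and 16.3 CPM in the controls and 35.5, 25.9, 28.9, 127 and 29.6 CPM in the tumors, with tumor 4 far above the rest, and its call (1.92 (SE 0.58, adjusted p = 0.0216)) was lost without control 1, 2 or 4.

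The lower members in microglia-gated cells were led by Ndufa5 and Cox7b. Ndufa5, an accessory subunit of the matrix arm of complex I, was at 373 to 394 CPM in the controls and 145, 114, 121, 167 and 178 CPM in the tumors (-0.88 (SE 0.17, adjusted p = 0.00301)). Cox7b was at 500.2, 565, 540.1 and 523 CPM against 199, 232, 215, 210.4 and 225 CPM (-0.77 (SE 0.15, adjusted p = 0.00305)). Atp5b was at 622 to 706 CPM against 276 to 378 CPM (-0.56 (SE 0.16, adjusted p = 0.0147)). In each of these the groups were far apart and the call held without each mouse. Sdha was at 159 to 183 CPM against 63.8 to 109.7 CPM (-0.53 (SE 0.15, adjusted p = 0.0172)) and lost its call without control 2 or 4. Atp5md, Atp5g3 and Ndufs1 were the remaining lower calls, at -0.53, -0.73 and -0.54. The first 2 were lost without control 2, 3 or 4 or tumor 2, and Ndufs1 without control 1, 3 or 4 or tumor 2, 3 or 4. The falls were lost with free RNA subtracted at the upper limit of its share, a setting in which 52 to 66 of the 84 members were left at 0 in each control, 69 were called higher and 0 lower, and the fold changes of Ndufa5, Cox7b, Atp5b and Sdha turned to 10.38, 11.16, 2.17 and 1.07. With tumor 3 also left out, 68 were called higher and 0 lower. Control levels of 0 after subtraction make such fold changes large. In the unsubtracted sums of the controls, Cox7b was lower than in free RNA (879 to 1071 CPM).

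Endothelial-gated cells numbered 33 to 36 per control and 177 to 337 per tumor, and the minimum of 50 cells intended for this comparison was lowered to 20 because no control reached it. Of 77 members tested, 2 were higher and 3 lower, against 11.9% and 12.7% of 7242 genes, with a median log2 fold change of -0.02 (0.01 over all genes). Cox7b was at 503, 673, 509 and 422 CPM in the controls and 175, 204, 190.0, 196 and 205 CPM in the tumors, and fell with -1.33 (SE 0.20, adjusted p = 0.00123) on the log2 scale, a call that held without each mouse. Atp5g2 was at 356, 372, 341 and 292 CPM against 543, 462, 466, 781 and 535 CPM and rose by 0.82 (SE 0.22, adjusted p = 0.0175), which was lost without control 4. Uqcrfs1 was at 73.6 to 83.3 CPM against 132, 116, 90.2, 182 and 174 CPM (0.90 (SE 0.28, adjusted p = 0.0295)). For all 3 genes the groups did not overlap. Atp5k and Cox6c were lower, at -0.67 (SE 0.21, adjusted p = 0.0317) and -0.58 (SE 0.20, adjusted p = 0.0486), and these calls and that of Uqcrfs1 were lost without any 1 of the controls, that of Atp5k also without tumor 2 and that of Cox6c without tumor 1, 2, 3 or 4. The counts were small and moved with single mice, from 0 higher without control 4 to 6 without tumor 3, and from 1 lower without control 1, 2 or 4 or tumor 2 to 5 without tumor 5. With library sizes 6 members were lower, as were 1060 of the 7242 genes. With free RNA subtracted, which left 7 to 50 of the 84 members at 0 in the controls, 22 members were higher and 0 lower, so that the call of Cox7b was lost, at a log2 fold change of -0.07, and the fold changes of Atp5k and Cox6c turned to 0.22 and 1.25, and with tumor 3 also left out 23 were higher and 0 lower. Neuron markers were at 3449 to 5719 CPM in the control sums and 84.2 to 1558 CPM in those of the tumors. Mural markers were at 2067 to 2295 CPM in the control sums and from 47.8 CPM (tumor 3) to 1409 CPM (tumor 5) in those of the tumors. The part of RNA from these or other cell types, Igf2-high and cycling cells among them, in these differences was not tested.

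Astrocyte-gated cells numbered 61 to 130 in the 3 controls that were tested (control 1 had 49 and was left out) and 124 to 389 in the tumors. Of 78 members tested, 5 were higher and 4 lower, against 12.6% and 14.7% of 8172 genes, with a median log2 fold change of -0.07 (0.06 over all genes). Ndufc2, an accessory subunit of the membrane arm of complex I, was at 343, 329.7 and 331 CPM in controls 2 to 4 and 661, 787, 774, 946 and 546 CPM in the tumors (1.12 (SE 0.24, adjusted p = 0.00490)). Sdhd was at 27.4, 24.2 and 30.7 CPM against 60.2, 53.2, 101, 131 and 60.7 CPM (1.53 (SE 0.36, adjusted p = 0.00736)). Atp5md, a small subunit of the membrane part of the ATP synthase, was at 649.7, 639.7 and 601 CPM against 251, 234, 322, 291 and 328 CPM (-1.17 (SE 0.21, adjusted p = 0.00182)). Cox7b was at 654, 561 and 621 CPM against 336, 227, 285, 257 and 259 CPM (-1.18 (SE 0.22, adjusted p = 0.00228)). These 4 calls held without each mouse, with no overlap between the groups, but with free RNA subtracted the fold changes of Atp5md and Cox7b turned to 1.27 and 1.96. That setting left 13 to 68 of the 84 members at 0 in the controls tested and gave 49 higher and 0 lower members, and 39 and 0 with tumor 3 also left out. The others were higher Cox6b2 (1.56 (adjusted p = 0.0199)), Sdhb (0.68 (adjusted p = 0.0325)) and Ndufb11 (0.70 (adjusted p = 0.0370)) and lower Cox6c (-0.81 (adjusted p = 0.0184)) and Ndufa5 (-0.66 (adjusted p = 0.0473)), each lost without control 3 and without control 4. Sdhb, Ndufb11 and Ndufa5 were also lost without control 2, Ndufb11 without tumor 1 or 5 and Ndufa5 without tumor 1, 2, 3 or 4. The count of higher members was 3, 2 and 2 without controls 2, 3 and 4. Free RNA could make up at most 63.5 to 79.8% of the UMIs of these sums in the 4 controls and 25.1 to 38.7% in the tumors (30.3 to 38.7% without tumor 3), and neuron markers were at 5234 to 6290 CPM against 246 to 2294 CPM. The part of RNA from neurons or other cell types, Igf2-high cells among them, in these differences was not tested. Whether tumor cells with astrocyte markers met this gate was not tested either.

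Within the tumors, cycling neural-gated cells, which met the list of cell cycle markers and no list of immune, vascular, erythroid or mature glial cells, were compared with microglia-gated cells of the same mice in tumors 2 to 5 (59 to 529 cycling cells; tumor 1 had 26 and was not tested). The members summed to 27265, 31743, 38019.6 and 35342 CPM in the cycling cells and to 19058, 17556, 22187 and 22779 CPM in the microglia, higher in the cycling cells of each mouse. The mt- genes took 5.96, 3.83, 1.96 and 2.73% of UMIs against 8.53, 3.84, 2.58 and 3.28%. Of 78 members tested with mouse as a block, 23 were higher and 4 lower in cycling cells, against 24.5% and 25.5% of 11137 genes, and the median log2 fold change was 0.28 (0.01 over all genes). On library sizes the median of all genes was 0.43, 61 members were higher and 1 lower, so the size of this difference rests on the scaling. Of the 11137 genes, 4412 were higher and 2001 lower on library sizes. Complex I contributed 15 of the 23. The count of higher members was 13 without tumor 4 and 11 without tumor 5, and 2 without both.

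Cox6b2 was at 45.9, 27.1, 59.3 and 35.2 CPM in cycling cells and 6.76, 4.19, 8.25 and 8.73 CPM in microglia (2.18 (SE 0.24, adjusted p = 0.000153)). Ndufb6, an accessory subunit of the membrane arm of complex I, was at 359, 228, 356 and 263 CPM against 100.3, 79.5, 110.4 and 91.2 CPM (1.22 (SE 0.17, adjusted p = 0.000529)). Atp5o, which forms part of the peripheral stalk of the ATP synthase, was at 613, 619, 589 and 476 CPM against 238, 170.4, 187 and 183 CPM (1.13 (SE 0.16, adjusted p = 0.000517)). All 4 mice had the higher value in the cycling cells for these 3 genes, and so they had for Ndufv1, the NADH-binding core subunit (1.07 (SE 0.17, adjusted p = 0.00120)), and for Cox7a2 (0.87 (SE 0.15, adjusted p = 0.00167)). In the other direction, Cox6a2 was at 0.937, 0, 1.99 and 3.81 CPM in cycling cells against 25.9, 28.9, 127 and 29.6 CPM in microglia (-5.23 (SE 0.54, adjusted p = 0.000106)). Cox7a2l, Cox4i1 and Cox7b were also lower, at -0.67 (SE 0.17), -0.50 (SE 0.15) and -0.51 (SE 0.16). These last 3 lost their calls on library sizes, at -0.24, -0.07 and -0.08, and without tumor 2 or tumor 5, as Cox4i1 and Cox7b did without tumor 4. The count of lower members was 1 without tumor 2, 2 without tumor 4 and 1 without tumor 5.

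**Figure D4:**
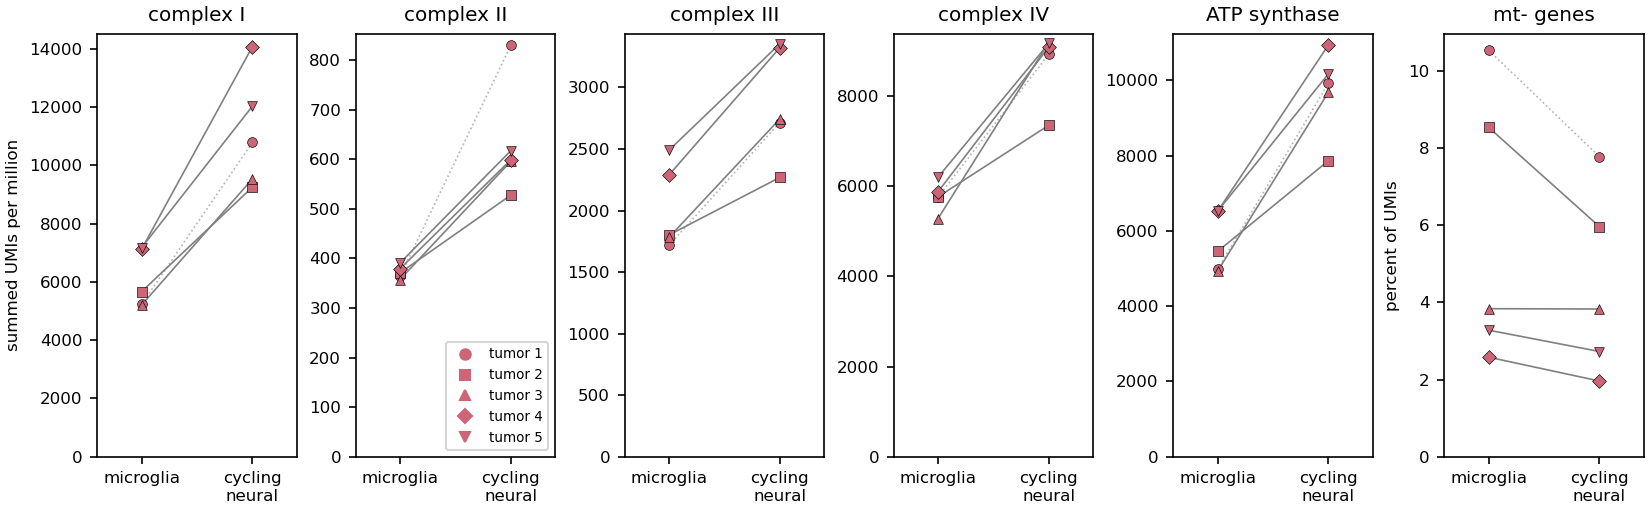
Summed level of each complex (CPM) and share of mt- genes (percent of UMIs) in microglia-gated and cycling neural-gated cells of the same tumor, joined by a line per mouse and dotted for tumor 1, whose 26 cycling cells were not tested. All sums of nuclear-encoded subunits are higher in the cycling cells, as for complex I of tumor 4 at 14076 CPM, while the mt- share is lower or level.

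Within the controls, neuron-gated cells (2838 to 4461 per mouse) had lower levels of most members than microglia-gated cells. Of 80 members tested with mouse as a block, 0 were higher and 71 lower, against 33.9% and 27.0% of 14850 genes, and the median log2 fold change was -0.42 (0.15 over all genes). No member was higher at an unadjusted p under 0.05 or with DESeq2. The lower members were 32 of 35 members of complex I, 3 of 4 of complex II, 7 of 8 of complex III, 12 of 16 tested of complex IV and all 17 of the ATP synthase. Cox7a2l led it, at 146, 149.9, 133 and 157 CPM in neurons and 296, 257, 282 and 264 CPM in microglia (-0.91 (SE 0.08, adjusted p = 7.79e-29)). Atp5g2 was at 174, 163, 156 and 175 CPM against 247, 268, 268 and 295 CPM (-0.72 (SE 0.08)), and Atp5a1, Atp5c1 and Ndufc2 followed at -0.64 (SE 0.08), -0.59 (SE 0.07) and -0.56 (SE 0.07). Ndufs1 (-0.09 (SE 0.12)), Sdha (-0.18 (SE 0.09)) and Uqcrc1 (-0.23 (SE 0.11)) did not pass the test. Free RNA held more member transcripts than either gate, 40154 to 43960.5 CPM against 18287 to 21854 CPM in neurons and 26409 to 27254 CPM in microglia. Its share was at most 44.4 to 49.7% of the neuron sums and 66.9 to 72.5% of the microglia sums, and with it subtracted 34 members could be tested, 7 were higher and 3 lower in neurons, and the median was 0.49.

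Mural-gated cells, the pericytes and smooth muscle cells of vessels, could be compared with endothelial-gated cells in the 5 tumors (24 to 98 mural cells per mouse) but not in the controls, which held 1 to 6. Of 78 members tested, 3 were higher and 2 lower, against 8.80% and 10.7% of 6500 genes, with a median log2 fold change of 0.16 (0.01 over all genes). Cox4i2 was at 266, 329, 602, 551 and 87.4 CPM in mural cells and 23.4, 10.1, 5.31, 5.05 and 9.64 CPM in endothelial cells (5.18 (SE 0.51, adjusted p = 6.6e-05)). It made up 13.3, 20.7, 39.4, 37.5 and 11.02% of the UMIs of the pair Cox4i1 and Cox4i2 in the mural cells of tumors 1 to 5, with no correction for length. Ndufa4l2 was at 943, 1138, 1251, 1708 and 406 CPM against 53.3, 43.4, 1.06, 22.7 and 75.8 CPM (4.96 (SE 0.72, adjusted p = 0.000550)), while Ndufa4 was at 169, 166, 288, 271 and 605 CPM against 627, 571, 599, 1168 and 758 CPM and was lower (-1.42 (SE 0.28, adjusted p = 0.00356)). Ndufa4l2 thus made up 84.8, 87.3, 81.3, 86.3 and 40.1% of that pair's UMIs. Each of these 3 differences had the same direction in all 5 tumors and held without any 1 mouse, and tumor 5 had the smallest of each. With free RNA subtracted the call of Ndufa4 was lost, and it was made again with tumor 3 also left out. Ndufa13 (0.68 (SE 0.19, adjusted p = 0.0241)) was higher, a call lost without tumor 1, 2 or 3, and Cox5a (-0.60 (SE 0.17, adjusted p = 0.0299)) lower, a call lost without tumor 1, 3, 4 or 5, each of which left 1 lower member. Without tumor 5 there were 5 higher members.

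Over 24 sums per gate and group, the genes with the pattern most like that of Cox4i2 on log2(CPM + 1) were Pdgfrb (Pearson r = 0.876), Nr1h3 (0.865), Rarres2 (0.862), Vstm4 (0.853) and Hspb2 (0.832), out of 18309 genes. Those most like Ndufa4l2 included Des (0.964), Aspn (0.915), Tbxa2r (0.914) and Tmem45a (0.904). These sums share libraries and free RNA, Pdgfrb is itself a mural gate marker and Rarres2 an ependymal one, so the values are a description only. Igf2-high cells, which were at 0 in the controls, had 16.5, 0, 6.82 and 4.68 CPM of Cox4i2 in tumors 2 to 5. Their Ndufa4l2 was at 5.69, 3.06, 2.49 and 3.90 CPM. In tumor 2 the Cox4i2 level of these cells (84 UMIs) was near that of all kept barcodes (18.97 CPM, 456 UMIs). Cycling neural-gated cells, which can share barcodes with the Igf2-high, neural progenitor and no-gate groups, had 15.9 CPM of Cox4i2 in tumor 2. Neural progenitor-gated cells of tumor 2 had 28.2 CPM (10 UMIs). Its barcodes with no gate had 18.2 CPM (146 UMIs), beside 141 UMIs in its mural-gated cells.

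Cox8b was concentrated in the choroid plexus-gated cells, 25 to 83 per control and 75 in tumor 1, the only tumor with more than 1 such cell, although the choroid was removed at dissection. Cox8b, the heart and muscle isoform of subunit 8, was at 233, 260.4, 189 and 188 CPM there in the controls and 298 CPM in tumor 1, with means of at most 9.09 CPM in the other gates (erythroid-gated cells of the controls). Cox6b2 was at 77.8, 216, 223 and 115 CPM and 237 CPM, the first from 4 UMIs, while tumor 1 also held 145 CPM of Cox6b2 in its cycling neural-gated cells. Cox7a1, the heart and muscle isoform of subunit 7A, was at 38.9, 44.2, 47.2 and 39.2 CPM and 16.6 CPM (3 UMIs), beside 36.6 CPM of Cox7a1 in the astrocyte-gated cells of control 2 and 28.2 CPM in those of tumor 4. These cells also had the highest member sum of any gate, 43738 to 52631 CPM in the controls and 45753 CPM in tumor 1. With 1 tumor, no comparison between groups was made.

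**Figure D5:**
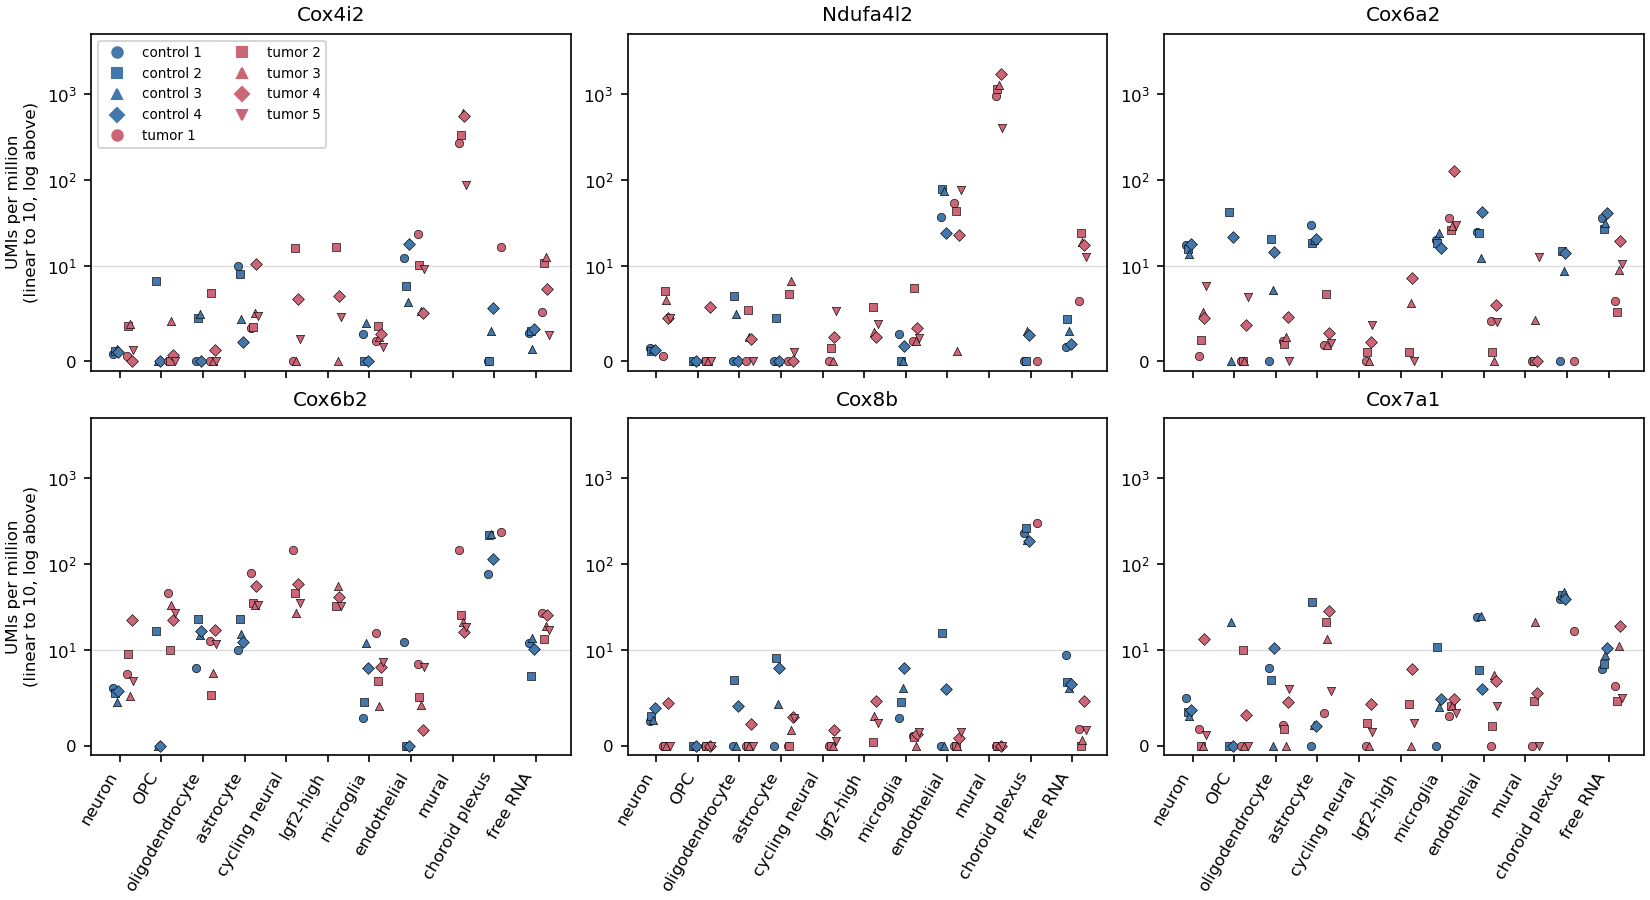
Level (CPM, linear to 10 and logarithmic above) of 6 isoform genes of complex IV in each gate with at least 20 cells, 1 symbol per mouse, controls in blue and tumors in red. Cox4i2 and Ndufa4l2 peak in mural-gated cells, at up to 602 and 1708 CPM, Cox6a2 is at its highest in microglia-gated cells of tumor 4 (127 CPM), and Cox8b is seen in choroid plexus-gated cells.

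The other genes of the pathway were counted in the same way, to be read against the 29.4% of all genes higher and 27.7% lower over all kept barcodes. On library sizes, 4374 of the 18161 genes tested over all kept barcodes were higher and 5767 lower. There, 0 of the 13 mt- genes were higher (0 also at an unadjusted p under 0.05 and with DESeq2) and 1 was lower, at a median log2 fold change of -0.48. The lower one was mt-Nd6, the subunit encoded on the light strand (-2.30 (SE 0.46, adjusted p = 0.00258)), and the spread between tumors was wide for the others. Of 48 assembly factors and electron carriers, 8 were higher and 8 lower (5 and 13 on library sizes), the former led by Sdhaf1 (1.69), Cox19 (1.15) and Uqcc3 (1.30) and the latter by Atpaf1 (-0.79), Ndufaf5 (-0.98) and Ttc19 (-0.96). Sdhaf1 helps insert the iron-sulfur clusters of Sdhb. Of 20 regulators of mitochondrial biogenesis, 5 were higher (2 on library sizes), led by Gabpa (0.85), Tfb2m (0.83) and Pprc1 (0.60), and 4 lower, led by Esrrg (-1.69), Lrpprc (-0.82) and Ppargc1a (-1.17). Ppargc1a encodes the coactivator PGC-1α. Nrf1 and Tfam, the factor that packages mitochondrial DNA, had log2 fold changes of 0.48 (adjusted p = 0.0773) and 0.18 (adjusted p = 0.467) and did not pass. Of 17 enzymes of the tricarboxylic acid cycle and pyruvate dehydrogenase, 1 was higher, the GDP-forming succinyl-CoA ligase subunit Suclg2 (1.44 (SE 0.15, adjusted p = 0.000186)), and 4 lower (7 on library sizes), among them Dlat (-0.67), Idh3b (-0.48) and Idh3a (-0.43). With TMM each of these shares lay under the share over all genes.

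Within the gates, mt-Nd6 was lower in tumors in microglia-gated (-1.98), endothelial-gated (-2.85) and astrocyte-gated cells (-2.80). In microglia it was the 1 mt- gene called of 13 (4 on library sizes), against 19.9% of all genes lower. In endothelial cells 6 of 13 were lower (8 on library sizes), against 12.7% of all genes, and in astrocytes 5 of 13, against 14.7%. The differences between these cell types were not tested. Where counts on library sizes are quoted for a gate, those over all genes are given with its comparison above. Values of the mt- genes with free RNA subtracted are not given, here or for the comparisons within mice that follow. In each of these gates that subtraction left 0 members lower. In microglia, where 21.9% of all genes were higher, 7 of 42 assembly factors were higher and 4 lower, which became 1 and 17 on library sizes. There 1 of 12 regulators was higher (Polg, 1.03) and 1 lower (Ppargc1a, -1.84). Of 17 tricarboxylic acid cycle genes there, 1 was higher (Suclg2, 0.89) and 5 lower, among them Pdha1 (-0.78) and Dlat (-0.88), and on library sizes 0 were higher and 14 lower. In endothelial cells, where 11.9% of all genes were higher and 12.7% lower, 3 of 28 assembly factors were higher, and 2 of 16 cycle genes and 1 of 8 regulators were lower. In astrocytes, where 12.6% were higher and 14.7% lower, 2 of 36 assembly factors were higher and 1 lower, 1 of 17 cycle genes was higher and 2 of 10 regulators were lower. In cycling against microglia-gated cells all 13 mt- genes were lower, at a median of -0.79 (6 of them on library sizes), while 11 of 47 assembly factors and carriers were higher and 6 lower (22 and 3 on library sizes), against 24.5% and 25.5% of all genes. Cytochrome c (Cycs (0.85)), the acyl carrier protein Ndufab1 (0.83) and cytochrome c1 (Cyc1 (0.80)) led the rises. In the same comparison 6 of 17 cycle genes were higher (11 on library sizes), with fumarase first (Fh1 (1.49)), and Suclg2 was lower (-1.06). In control neurons against microglia, all 13 mt- genes were lower as well, 8 of 48 assembly factors were higher and 13 lower, against 33.9% and 27.0% of all genes, and 6 of 20 regulators were higher, among them Ppargc1a (0.85) and Ppargc1b (1.70). In mural against endothelial cells 1 of these genes was called, Idh3a (0.91).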

How the data were processed

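The authors made 10x 5′ gene expression libraries of 9 mice and counted UMIs with Cell Ranger (version 7 in their processing notes, 6.1.2 in the headers of the deposited matrices), and the notes also list Scanpy 1.8.2, the build mm10 and added transgene features. The deposited values are raw UMI counts per gene and barcode, with no normalization. They were read with Python 3.11.15 and Scanpy 1.11.5. Per library up to 10000 barcodes with most UMIs were taken (all 9001 of tumor 3), and those with 200 to 6000 genes, at most 20% mt- UMIs and no doublet call (0.8% expected per 1000 barcodes) were kept. The 3000 barcodes with fewest UMIs stood for free RNA and may include damaged cells. In tumor 3 all of these were also taken as cells and 2376 kept, so its gates and free RNA shares rest partly on its own cells, and free RNA was also subtracted with tumor 3 left out. Of 19 marker lists, all but the cell cycle list gave gates that exclude each other. A barcode met such a gate with UMIs of at least 3 markers, a -log10 Poisson p of at least 6 over free RNA and 2 times the score of the next list. Cycling neural-gated cells were picked separately, without the last rule. They can therefore also be in the Igf2-high, neuron, neuroblast, neural progenitor or oligodendrocyte precursor gates, or in no gate.

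Counts were summed per mouse and gate and tested with edgeR 4.0.16 (R 4.3.3; filterByExpr, TMM, glmQLFit and glmQLFTest, Benjamini-Hochberg, threshold 0.05), over mice with at least 50 cells (20 for mural and endothelial cells). DESeq2 1.42.0 was an alternative, and the tests were checked on simulated counts. The members and lists were chosen with earlier results of these data known, so no test was made of their sums. Named were core subunits, isoform genes and, per comparison, the 5 members with the smallest p in each direction that kept their direction without each mouse (3 for other lists), and other called members were named after their values were seen. Replicate numbers are shared by the groups, and the labels do not say that they pair mice. Same-numbered mice had correlations of 0.112, -0.00251, 0.00223 and 0.0402 over all kept barcodes. These gave no sign of pairing but cannot exclude it, and no block was used. Libraries shared 9 to 32 barcodes per pair, and no replicate pair agreed within sampling noise. Promoters came from RefSeq. Results of a few genes that the naming rules would include are not reported here.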

Additional observations from a re-analysis of the deposited data

Results flagged for a closer look

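Among the 4 controls, a sample stood apart from the other 3 for several members and sums. Over controls and tumors, 94 groups were examined and 8 held such a sample, and chance sets apart about 1 group in 20. The ATP synthase gave 0.347 nuclear UMIs per mt- UMI in control 1, against 0.361 to 0.362 in the other controls. The members of endothelial-gated cells summed to 28314 CPM in control 2, against 26628 to 26832 CPM. Over all kept barcodes Atp5g3 was at 469 CPM in control 2 (441 to 445 CPM in the others), Cox4i2 at 1.54 CPM in control 1 (1.98 to 2.06 CPM) and Uqcrfs1 at 103 CPM in control 1 (119.5 to 122 CPM).

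Among the 5 tumors, tumor 4 stood apart for the muscle isoforms Cox6a2, at 19.8 CPM against 5.61 to 9.08 CPM in the other tumors, and Cox7a1, at 10.3 CPM against 2.84 to 4.67 CPM. Cox8c was at 0.0416 CPM in tumor 2 and at 0 in every other mouse.

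Cox6a2 was higher in the microglia-gated cells of every tumor than in the mean of the controls, at a tumor mean of 49.3 CPM, and at lower CPM in the endothelial-gated and astrocyte-gated cells of every tumor. The control values of Cox6a2 in these gates rest on few UMIs, 2, 3, 2 and 7 in endothelial-gated cells (12.4 to 41.6 CPM) and 3, 4, 9 and 10 in astrocyte-gated cells (18.3 to 30.1 CPM). Free RNA held 26.8 to 41.5 CPM of Cox6a2 in the controls and 5.20 to 19.2 CPM in the tumors, so the values in these 2 gates are not read as expression there. The difference between these cell types was not tested.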

How the results depend on the processing

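The counts here are members called at an adjusted p under 0.05 (higher, then lower). Shares over all genes are given for the main setting only, here and in the paragraphs above, where counts over all genes on library sizes also stand. A changed count is therefore not read as particular to the members. Removing free RNA (also with tumor 3 left out), library sizes only, only barcodes meeting a gate and leaving out tumors 4 and 5 or tumors 1 and 3 were chosen after seeing the data. The cause of each shift was not tested, apart from the smaller numbers of cells, mice or members that a setting leaves.

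Over all kept barcodes there were 15 higher and 2 lower members. The higher ones became 35 with a mitochondrial limit of 10%, 27 with the mixture per library, 29 with 5000 barcodes, 27 with only barcodes meeting a gate and 53 without tumors 1 and 3. The lower ones became 8 with library sizes only, 1 with the 10% limit, 1 with 5000 barcodes and 11 without tumors 4 and 5. In microglia-gated cells (11 and 7), the higher ones became 3 with library sizes only, 6 with the mixture, 69 with free RNA subtracted and 30 without tumors 1 and 3. The lower ones became 28 with library sizes only, 2 with no filter on low counts, 4 with the 10% limit, 4 with 5000 barcodes, 0 with free RNA subtracted and 11 without tumors 4 and 5.

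In endothelial-gated cells (2 and 3), the higher ones became 7 with no filter, 4 with no mitochondrial limit, 5 with the mixture, 1 with 5000 barcodes, 22 with free RNA subtracted, 1 without tumors 4 and 5 and 8 without tumors 1 and 3. The lower ones became 6 with library sizes only, 1 with the mixture, 1 with 5000 barcodes, 0 with free RNA subtracted and 7 without tumors 4 and 5. In astrocyte-gated cells (5 and 4), the higher ones became 3 with no filter, 1 with 5000 barcodes and 49 with free RNA subtracted, and the lower ones 20 with no mitochondrial limit, 2 with 5000 barcodes, 0 with free RNA subtracted and 13 without tumors 4 and 5.

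With free RNA subtracted, 11 named members reversed. In microglia-gated cells the log2 fold changes became 10.38 (Ndufa5), 11.16 (Cox7b), 2.17 (Atp5b), 1.07 (Sdha) and 10.99 (Atp5md). In endothelial-gated cells they became 0.22 (Atp5k) and 1.25 (Cox6c), and in astrocyte-gated cells 1.27 (Atp5md), 1.96 (Cox7b), 1.65 (Cox6c) and 6.36 (Ndufa5). With tumor 3 also left out they became 10.34, 11.10, 2.20, 1.03 and 10.92 in microglia-gated, 0.19 and 1.20 in endothelial-gated and 1.12, 1.88, 1.64 and 6.33 in astrocyte-gated cells for the same members in the same order, and the counts 68 higher and 0 lower, 23 and 0, and 39 and 0, while cycling against microglia-gated cells gave 14 higher. This subtraction takes the upper limit of the share of free RNA. It left 52 to 66 of the 84 members at 0 in the microglia-gated sums of the controls against 1 to 5 in those of the tumors, 7 to 50 against 5 to 6 in endothelial-gated and, in the controls tested, 13 to 68 against 3 to 4 in astrocyte-gated sums.

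The replicate number as a block, with numbers not known to pair the mice, gave 6 higher and 1 lower over all kept barcodes, 7 higher in microglia-gated, 1 higher in endothelial-gated and 2 higher in astrocyte-gated cells. Without the mouse block, cycling against microglia-gated cells gave 8 higher and 1 lower (23 and 4 with it) and mural against endothelial-gated cells 1 lower. Cycling against microglia-gated cells also gave 61 higher and 1 lower with library sizes only, and 2 higher and 1 lower without tumors 4 and 5. Neuron against microglia-gated cells (0 and 71) gave 1 higher with no filter, 1 higher with the 10% limit, and 7 higher and 3 lower with free RNA subtracted. Mural against endothelial-gated cells (3 and 2) gave 4 lower with no filter or a stricter gate, and 1 lower with the 10% limit, the mixture, 5000 barcodes, the other minimum of cells, free RNA subtracted, without tumors 4 and 5 or without tumors 1 and 3.

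The control mean of the member sum, 27109 CPM, became 27892 with no mitochondrial limit, 21717 with the 10% limit, 22950 with the mixture, 23827 with 5000 barcodes, 21701 with only barcodes meeting a gate and 30072 with mt- genes left out of the denominator. That of the ratio to mt- UMIs, 0.275, became 0.244, 0.319, 0.292, 0.281 and 0.290 with the first 5 of these settings. Tumor 2, below every control in the main setting, moved above all of them in several. Its member sum was 24778.5 CPM with the 10% limit (controls at most 22490) and 24801 with the mixture (23877). With 5000 barcodes it was 24557 (24522), and with only barcodes meeting a gate 22560 (22531). Its ratio, 0.262, rose above every control with the 10% limit, the mixture and 5000 barcodes, at 0.378, 0.349 and 0.309.

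Without each mouse in turn, the counts of higher and lower members ranged from 6 to 24 and 2 to 3 over all kept barcodes, 4 to 15 and 3 to 9 in microglia-gated, 0 to 6 and 1 to 5 in endothelial-gated, 2 to 6 and 3 to 5 in astrocyte-gated, 11 to 22 and 1 to 4 for cycling against microglia-gated, 0 to 0 and 66 to 72 for neuron against microglia-gated and 2 to 5 and 1 to 2 for mural against endothelial-gated cells. The control mean of the member sum ranged from 26907 to 27332 CPM and the tumor mean from 24276 to 28109 CPM, and the ratio from 0.273 to 0.278 and from 0.414 to 0.712.

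Of the other alternatives for counts and means, 167 stayed within 1.5 times or 1 SD, and for named members 675 kept direction and call while 87 kept only the direction. DESeq2, the RLE normalization, tests without mt- genes and keeping doublets moved none of the counts of members by over 1.5 times. The endothelial comparison was not run with the 10% limit or a minimum of 50 cells, and the astrocyte comparison not with the 10% limit or the mixture, because too few mice had enough cells. Tumors 1 and 3 had the fewest UMIs, and the endothelial-gated sums of the controls held 33 to 36 cells, which limits the precision for single members there.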

Other observations

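In oligodendrocyte-gated cells the members summed to 26351 to 29862 CPM in the 4 controls and 18971 to 35312 CPM in the 5 tumors, with 9.59 to 11.04% and 2.13 to 8.87% mt- UMIs. In oligodendrocyte precursor-gated cells they summed to 28168 to 30892 CPM in 3 controls and 22504 to 35267 CPM in the tumors. Neural progenitor-gated cells, counted in 4 tumors, were at 24538 to 39199 CPM and Igf2-high cells, counted in 4 tumors, at 28039 to 38349 CPM. Complex II summed to 544 to 649 CPM in the former and 511 to 633 CPM in the latter, against 358 to 391 CPM in the microglia-gated cells of the tumors.

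Erythroid-gated cells were at 2134 to 14984 CPM in the 3 tumors with at least 20 such cells and 21355 to 24344 CPM in the controls. The barcodes that met no gate were at 34275 to 35996 CPM in the controls and 24062 to 36124 CPM in the tumors, and held 12.8 to 13.5% and 2.72 to 14.6% mt- UMIs. None of these values was tested.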
